A study of Mus musculus with 16 samples.

Results

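The 51 genes described here act in G2 and mitosis. They were chosen by gene symbol as a list of genes of mitotic entry, the spindle, chromosome structure and cytokinesis, a rule that uses symbols and no measured value. The choice was made with earlier results of these data known. All 51 were among the 47729 genes with values in the deposited data and among the 16994 genes tested. Each had at least 0.5 CPM (reads per 1000000 counted reads) in all 16 libraries, so none entered the test only through the group in which it was high. They were sorted into 7 roles, namely the kinase CDK1 with its partners and the ubiquitin enzymes of mitosis, the Aurora and NEK kinases, the kinetochore, the spindle microtubules, cytokinesis, chromosome structure and the nuclear envelope.

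The cochleae came from P4 mice that carried GLAST CreERT/+ and Rpl22 HA/+ (control), or these alleles together with Lgr5 DTR/+ (DTR), in which diphtheria toxin (DT) kills Lgr5+ supporting cells. The paper describes DT and tamoxifen injections at P1 for both genotypes, but the labels list the controls as untreated. Every replicate pooled the cochleae of several mice, and each of the 8 pools gave 2 libraries, 1 from whole homogenate (input) and 1 from ribosomes immunoprecipitated through HA-tagged Rpl22 (IP), with 4 libraries per group. The tag is expressed where the GLAST driver recombined, which the study places in the greater epithelial ridge (GER) and inner phalangeal cells. IP is thus meant to enrich these cells and is not a pure sample of them.

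A dividing cell makes most of its mitotic proteins shortly before it uses them. Cyclin B with CDK1 drives entry into mitosis, Aurora kinases and the kinetochore attach and check the chromosomes, and the anaphase-promoting complex ends mitosis by having cyclins degraded. Transcription of these genes is held down in resting cells and turned on in G2, in large part through 2 promoter elements, the cell cycle genes homology region (CHR) and the CCAAT box bound by NF-Y. Supporting cells of the mammalian cochlea leave the cell cycle before birth, and in the neonate some can return to it after damage.

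Both promoter elements were looked for in the RefSeq promoter windows of GRCm38.p6, which reach from 250 bases before a gene's start to 50 bases after it. Windows were found for 45 of the 51 genes. The CHR was searched as TTTGAA and TTCGAA and the CCAAT box as CCAAT, on both strands, so that TTCAAA and ATTGG also count and a TTCGAA, which reads the same on both strands, counts once. The 200 bases before the start of 6 genes are shown as examples. Most of these genes were called higher after damage, and Tubb4b, which holds both elements, was not. Capitals mark the CHR and CCAAT letters, each line runs 5′ to 3′ along the gene and ends at the base before its start.
Psrc1 (chr3:108383604-108383803, plus strand): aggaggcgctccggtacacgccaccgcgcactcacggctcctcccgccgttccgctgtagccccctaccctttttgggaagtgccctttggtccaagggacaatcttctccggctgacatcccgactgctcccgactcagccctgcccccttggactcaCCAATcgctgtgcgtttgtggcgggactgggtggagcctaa
Ccnb2 (chr9:70421555-70421754, minus strand): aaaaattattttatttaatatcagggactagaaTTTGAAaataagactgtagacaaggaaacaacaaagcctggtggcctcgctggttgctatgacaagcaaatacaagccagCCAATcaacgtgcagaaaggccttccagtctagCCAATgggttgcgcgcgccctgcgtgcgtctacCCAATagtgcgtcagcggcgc
Cdc20 (chr4:118437344-118437543, minus strand): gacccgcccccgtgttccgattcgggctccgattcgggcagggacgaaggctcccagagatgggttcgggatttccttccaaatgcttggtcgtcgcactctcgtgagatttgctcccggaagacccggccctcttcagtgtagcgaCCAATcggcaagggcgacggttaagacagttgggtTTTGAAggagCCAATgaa
Top2a (chr11:99024190-99024389, minus strand): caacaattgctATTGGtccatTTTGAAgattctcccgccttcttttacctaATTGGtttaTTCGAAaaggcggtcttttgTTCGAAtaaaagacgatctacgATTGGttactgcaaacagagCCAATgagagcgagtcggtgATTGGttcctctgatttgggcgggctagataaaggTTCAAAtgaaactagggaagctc
Cks2 (chr13:51645032-51645231, plus strand): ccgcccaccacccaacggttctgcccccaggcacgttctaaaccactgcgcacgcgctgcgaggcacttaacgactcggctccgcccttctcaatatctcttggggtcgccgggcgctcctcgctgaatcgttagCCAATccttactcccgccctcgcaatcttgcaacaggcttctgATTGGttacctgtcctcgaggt
Tubb4b (chr2:25224703-25224902, minus strand): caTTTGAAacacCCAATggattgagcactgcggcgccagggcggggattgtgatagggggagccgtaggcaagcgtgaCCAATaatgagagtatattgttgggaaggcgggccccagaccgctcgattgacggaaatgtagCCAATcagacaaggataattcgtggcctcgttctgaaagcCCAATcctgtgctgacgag

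The first 5 of these genes were called higher in DTR IP and Tubb4b was not. The first of 2 Psrc1 windows, shown here, has a CHR, TTCGAA, that begins at base 5 after the start, and a second TTTGAA of Ccnb2 begins at base 5 as well. In Cdc20 a CHR lies between a pair of CCAAT boxes close to the start, and the Top2a window holds 4 CHR matches interleaved with 6 CCAAT matches. Cks2 has CCAAT boxes and no CHR in its window, and Tubb4b has a CHR and 4 CCAAT boxes in the stretch shown.

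Over all 45 genes with a window, 35 (77.8%) held a CHR, 35 (77.8%) a CCAAT box and 29 (64.4%) both. Among the 11719 tested genes with a window the shares were 16.1%, 41.8% and 6.55%, and among all 27025 genes with a window they were 21.7%, 41.1% and 8.61%. The 2 classes of genes had like shares, and the difference was not tested. A CHR was present for 26 of the 34 genes higher in DTR IP (76.5%) and for 9 of the 11 that were not called (81.8%), and both elements for 22 (64.7%) and 7 (63.6%). A match is a string of letters and not a measured binding site. The plot of motif shares shows the red bars of both classes at like heights above the grey bars of all tested genes.

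**Figure D1:**
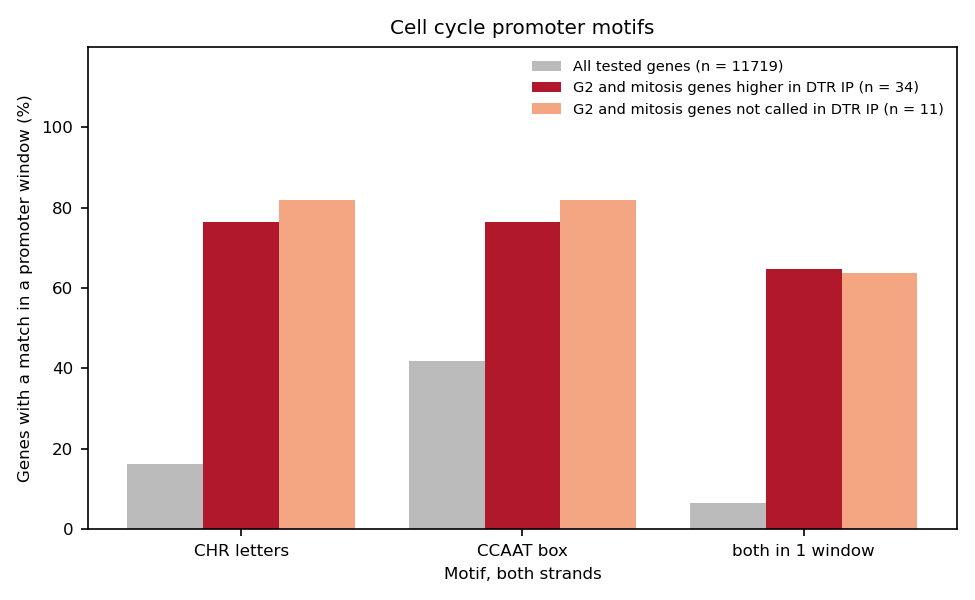
Percent of genes with CHR letters, a CCAAT box or both in a RefSeq promoter window (GRCm38.p6), for all 11719 tested genes with a window (grey), the 34 G2 and mitosis genes higher in DTR IP (dark red) and the 11 not called (light red). For the CHR the bars stand at 16.1%, 76.5% and 81.8%.

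Libraries held between 28089836 and 41966310 counted reads, so that 3 reads were worth 0.0715 to 0.107 CPM, depending on the library, a limit that covers counting error only. The lowest value of any of the 51 genes was 0.598 CPM (20 reads), for Ndc80 in control IP replicate 1, and the fewest reads were the 19 of Nuf2 in control IP replicate 4 (0.621 CPM). In the check of the model, the summed CPM of 6 Lgr5 supporting cell markers lay between 436 and 590 in control IP and between 56.8 and 75.9 in DTR IP, while that of 6 GER markers lay between 7377 and 8377 and between 7025 and 8591. Unless stated otherwise, changes are log2 fold changes (LFC) of quantile-normalized CPM plus 0.5, compared with limma (two-sided), with p-values adjusted over all 16994 tested genes, and a gene was called at an adjusted p under 0.05. The pseudocount makes the LFC of genes near 1 CPM smaller than their ratio of CPM. The GER sum hides a split of its 6 markers in DTR IP against control IP. There 1 was called higher and 2 lower, with LFCs from -1.18 to 0.53. In control IP against control input, 1 was called higher and 2 lower (median LFC 0.03), so these 6 markers as a set were not enriched in IP.

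Levels of the G2 and mitosis genes were higher after damage in IP and in the whole tissue. In DTR IP against control IP, 40 of the 51 genes were called higher and 0 lower, with a median LFC of 1.23 against -0.00 over all tested genes, and 33 at least doubled. Of all tested genes, 8.44% were called higher in this comparison. At an unadjusted p under 0.05, 44 of the genes were higher and 0 lower, against 2531 higher and 2298 lower of 16994 tested genes. On the recovered read counts edgeR called 39 and DESeq2 41 higher, and 0 lower. Shares over all tested genes with these 2 tools are not given here. The criteria the study set for changes after damage (adjusted p under 0.05, LFC of 1 or more, and a separation, the lowest library of the higher group divided by the highest library of the lower group, above 1.5) were met by 26 of the genes, against 1.12% of all tested genes. The 4 DTR IP libraries lay above all 4 control IP libraries for 37 genes, against 10.5% of all tested genes. Bulk RNA cannot tell a larger number of dividing cells from more of these transcripts per cell. By staining for EdU or Ki67, the paper found many cycling Sox2+ cells in P4 damaged cochleae and little or no proliferation in controls. It also reported cell division terms for its genes changed between the same IP groups. The part of cell number in the LFCs given here was not tested.

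In DTR input against control input, 31 of the genes were called higher and 0 lower (1 lower at an unadjusted p under 0.05, Gas2l3), with a median LFC of 0.74 against -0.02 over all tested genes, of which 7.17% were called higher. The number of genes without overlap between groups was again 37, against 11.6% of all tested genes, but 5 genes at least doubled and 2, Psrc1 and Smc4, met the study's criteria, against 1.34% of all tested genes. That last count rested on the control libraries, and was 8 without control input replicate 1 and 4 without control input replicate 3. All 31 genes called in input were also called in IP. The IP and input libraries of a pool share the homogenate, so the comparisons are not independent. Another 9 genes were called in IP and not in input (Bub1, Cenpe, Ckap5, Hmgb2, Kif20b, Ndc80, Nuf2, Top2a and Tpx2), and 11 in neither (Anp32e, Cbx5, Cks1b, G2e3, Gas2l3, Hjurp, Lbr, Ncapd2, Rangap1, Tmpo and Tubb4b). Of the 9, 7 (all but Bub1 and Ckap5) had every DTR input library above every control input library, though not called there. A replicate block moved some of these genes. With it Ncapd2 (adjusted p = 0.00912), Hjurp and Tmpo were called higher in IP, Hmgb2 (0.00933), Tpx2 (0.0063) and Top2a higher in input, and Gas2l3 lower in input.

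**Figure D2:**
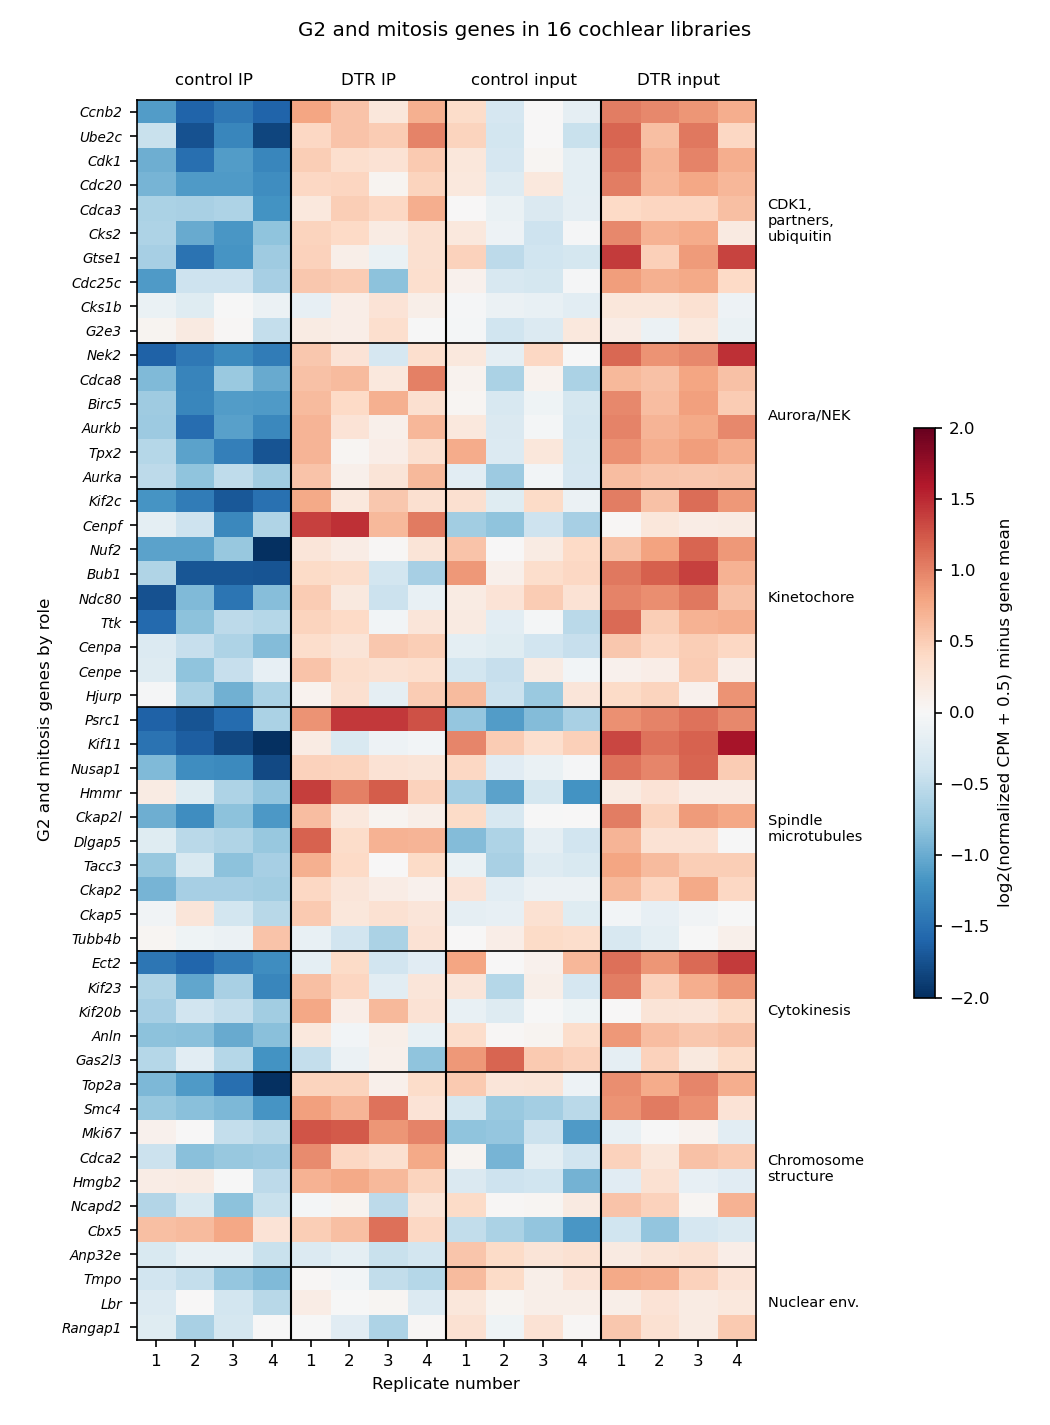
Levels of the 51 genes (rows, by role) in 16 libraries (columns, by group and replicate number), as log2(normalized CPM + 0.5) minus the mean of the gene over all libraries (red above, blue below, colours clipped at 2). Control IP libraries are blue for most rows, and the rows of Cks1b, G2e3 and Lbr are among the palest.

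The mean log2 level over the 51 genes lay between 2.98 and 3.28 in the control IP libraries and between 4.10 and 4.38 in DTR IP, between 3.66 and 4.05 in control input and between 4.42 and 4.55 in DTR input. Replicate 1 was the highest library of each group. As the heatmap of levels shows, control IP was the lowest of the 4 groups and both DTR groups stood above both control groups, with no overlap of these means.

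Signals of other cells moved in the same comparison. The summed CPM of 6 of 6 macrophage markers lay between 13.5 and 22.1 in control IP and between 32.3 and 46.9 in DTR IP, and in input between 84.6 and 89.4 in control and between 114.8 and 185 in DTR libraries. For 5 of 5 mesenchyme markers it lay between 1571 and 2125 in control IP and between 2871 and 3278 in DTR IP, and in input between 2700.3 and 2918 and between 2818 and 3686. For 5 of 5 Schwann cell markers it was between 764 and 1193 in control IP and between 523 and 747 in DTR IP. In input the Schwann cell sum lay between 2421 and 4340 in control and between 1203 and 1940.5 in DTR libraries, and 4 of its 5 markers were called lower. For 6 of 6 hair cell markers the sum lay between 164 and 234.4 in control IP and between 234.1 and 274 in DTR IP. In input it lay between 463 and 661 in control and between 459 and 608 in DTR libraries. The 4 endothelium markers summed to 19.5 to 35.0 CPM in control IP and 34.0 to 39.8 CPM in DTR IP. In input they gave 75.8 to 95.5 CPM in control and 66.7 to 109 CPM in DTR libraries. Neuron and red cell sums overlapped between treatments in IP and in input. No marker was under 3 reads in all libraries. The part of these cells in the rise of the G2 and mitosis genes was not tested.

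Of the 10 genes of CDK1, its partners and the ubiquitin enzymes, 8 were called higher in DTR IP (median LFC 1.23) and 8 in DTR input (median 0.81). Ccnb2, cyclin B2 and a partner of CDK1 (ENSMUSG00000032218, chromosome 9 of GRCm38 from 70407692 to 70421547), had 5.65, 4.02, 4.03 and 3.17 CPM in the control IP libraries (replicates 1 to 4) and 24.5, 19.7, 15.4 and 21.6 CPM in DTR IP. In input it had 16.7, 10.8, 12.8 and 11.2 CPM in control and 27.4, 25.2, 23.4 and 22.5 CPM in DTR libraries. Neither pair of groups overlapped, and the step was larger in IP, at an LFC of 2.01 (SE 0.17, limma adjusted p = 1.2e-07) against 0.93 in input (SE 0.17, adjusted p = 0.00097). Cdc20 activates the anaphase-promoting complex and had 12.1, 10.9, 9.85 and 8.34 CPM in control IP compared with 33.6, 32.5, 24.4 and 31.8 CPM in DTR IP. Its input levels were 26.3, 19.8, 26.1 and 19.8 CPM in control and 49.0, 36.1, 38.6 and 37.9 CPM in DTR libraries. The groups did not overlap on either side, with LFCs of 1.45 and 0.79 (adjusted p = 7.7e-07 and 0.00076), and Elovl1 overlaps the gene on the opposite strand. Among the members outside the naming rule, Ube2c, the ubiquitin-conjugating enzyme of the same complex, had an LFC of 1.95 in IP and 0.90 in input, and Cdk1 itself 1.63 and 0.94, all 4 called. The call of Ube2c in input was lost with edgeR (adjusted p = 0.0548), with no filter on low values, and without DTR input replicate 1 or 3 or control input replicate 2, 3 or 4.

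The paralogs Cks1b and Cks2, small subunits of cyclin-CDK complexes, parted. Cks2 had 4.81, 3.75, 2.85 and 3.43 CPM in control IP compared with 11.6, 10.6, 8.78 and 9.73 CPM in DTR IP, and 9.17, 7.74, 5.54 and 7.58 CPM against 16.5, 12.97, 13.1 and 9.17 CPM in input. The IP groups stood apart and the input groups met only at DTR replicate 4, the lowest of the DTR libraries. Its LFC was 1.23 in IP (SE 0.19, adjusted p = 0.00011) and 0.73 in input (SE 0.19, adjusted p = 0.0127), and the call in input was lost without DTR input replicate 1 (adjusted p = 0.0565) or control input replicate 3 (0.0537). Cks1b had 45.9, 44.3, 48.7 and 42.2 CPM in the control IP libraries, 47.0, 55.3, 60.3 and 52.6 CPM in DTR IP, 48.5, 45.6, 43.6 and 42.6 CPM in control input and 59.6, 57.7, 59.3 and 46.4 CPM in DTR input. The Cks1b groups overlapped in IP and in input, and neither LFC (0.21 and 0.29, adjusted p = 0.224 and 0.116) was called. Without DTR input replicate 4, the lowest DTR input library, Cks1b was called in input (LFC 0.38, adjusted p = 0.0293). Per kb of exon, Cks1b stood at 40.2 CPM in control IP and Cks2 at 5.37. How reads shared by the paralogs were assigned is not given in the sources used here. The smallest change of these 10 genes was that of G2e3, a ubiquitin ligase of G2, with 26.6, 30.6, 24.9 and 16.3 CPM in control IP compared with 30.0, 28.2, 32.1 and 24.7 CPM in DTR IP, and 23.9, 19.4, 19.9 and 28.5 CPM against 28.3, 22.6, 27.9 and 23.4 CPM in input. Its groups overlapped and the LFC in IP was 0.21 (95% confidence interval -0.12 to 0.54, adjusted p = 0.43).

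All 6 genes of the Aurora and NEK kinases with their partners were called in DTR IP (median LFC 1.58) and 5 in DTR input (median 0.92), and 6 met the study's criteria in IP. Nek2, a kinase that parts the centrosomes, had 1.17, 1.54, 1.499 and 1.21 CPM in control IP compared with 7.91, 5.91, 3.84 and 6.08 CPM in DTR IP, and 5.79, 4.59, 6.41 and 4.71 CPM against 12.1, 9.61, 9.68 and 14.5 CPM in input. DTR IP was above control IP in every library, and the DTR IP values lay around those of control input. The LFC was 1.63 in IP (SE 0.20, adjusted p = 1.1e-05). Birc5 (survivin) and Cdca8 (borealin) hold Aurora B, the product of Aurkb, at centromeres in the chromosomal passenger complex. Birc5 had 7.89, 5.12, 5.14 and 4.68 CPM in control IP compared with 22.3, 17.5, 22.2 and 16.4 CPM in DTR IP, with 13.5, 10.98, 11.9 and 9.88 CPM against 26.5, 20.2, 22.7 and 19.3 CPM in input. Cdca8 had 6.85, 5.06, 6.94 and 5.10 CPM in control IP compared with 21.5, 20.5, 15.1 and 26.6 CPM in DTR IP, with 13.7, 8.84, 13.4 and 8.02 CPM against 21.4, 19.7, 21.8 and 20.3 CPM in input. The 3 genes of the complex rose in IP by LFCs of 1.59 (Birc5), 1.59 (Cdca8) and 1.58 (Aurkb), with SEs between 0.16 and 0.20. Aurka, the Aurora kinase of the spindle poles, changed least of these genes and had 7.98, 6.72, 7.32 and 5.72 CPM in the control IP libraries, 18.9, 12.6, 14.0 and 18.6 CPM in DTR IP, 9.82, 7.29, 10.9 and 8.98 CPM in control input and 18.6, 17.1, 16.5 and 17.7 CPM in DTR input. It was called in both, at LFCs of 1.03 in IP and 0.90 in input (adjusted p = 0.00017 and 0.00075).

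At the centromere and kinetochore, 8 of 9 genes were called in DTR IP (median LFC 1.27) and 4 in DTR input (median 0.64). Kif2c, the kinesin MCAK that takes microtubules apart at wrong attachments, had 2.27, 2.04, 1.32 and 1.44 CPM in control IP compared with 11.3, 7.01, 9.01 and 7.497 CPM in DTR IP. In input it had 7.70, 5.52, 7.71 and 5.41 CPM in control and 13.7, 9.46, 13.2 and 11.7 CPM in DTR libraries. The groups did not overlap, and the LFC was 1.90 in IP (SE 0.19, adjusted p = 1.0e-06) and 0.82 in input (SE 0.19, adjusted p = 0.007). Cenpa, the histone H3 variant that marks centromeres, had 17.9, 16.2, 13.2 and 10.2 CPM in control IP compared with 29.4, 26.1, 31.7 and 30.2 CPM in DTR IP, with 18.3, 18.6, 15.7 and 15.2 CPM against 32.2, 28.1, 29.2 and 29.4 CPM in input. It rose by LFCs of 0.97 in IP and 0.79 in input (adjusted p = 3.0e-05 and 0.00032). Its chaperone Hjurp had 23.0, 15.4, 10.99 and 13.1 CPM in control IP compared with 25.9, 29.4, 20.6 and 32.9 CPM in DTR IP, and 35.2, 17.4, 13.2 and 27.01 CPM against 30.9, 30.9, 23.3 and 44.1 CPM in input. Replicates of Hjurp spread more than those of Cenpa and the groups overlapped, and its LFC of 0.74 in IP (SE 0.26) was not called (adjusted p = 0.0654). It was called with a replicate block (adjusted p = 0.00619), without control IP replicate 1 (0.0321), and without control input replicate 1 (0.039) or 3 (0.044). Of the 5 genes not called in input, Ndc80 and Nuf2, which form the microtubule-binding complex of the kinetochore, Bub1, a checkpoint kinase, and Cenpe, a kinetochore motor, were called in IP, with LFCs between 0.82 (Cenpe) and 1.47 (Nuf2). Their LFCs in input were 0.59 (Ndc80), 0.58 (Nuf2), 0.64 (Bub1) and 0.39 (Cenpe), and the input groups overlapped for Bub1 alone of them.

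Among the spindle microtubule genes, 9 of 10 were called in DTR IP (median LFC 1.28) and 8 in DTR input (median 0.79). Psrc1, a spindle protein that regulates microtubule dynamics (ENSMUSG00000068744, chromosome 3 of GRCm38 from 108383839 to 108388231), changed most of all 51 genes. It had 1.23, 1.22, 1.23 and 2.48 CPM in control IP compared with 10.5, 14.4, 14.5 and 12.8 CPM in DTR IP, and 2.69, 2.22, 2.39 and 2.92 CPM against 10.7, 10.7, 11.03 and 10.5 CPM in input. Every DTR library was more than 3 times any control library of its kind, and control IP replicate 4 stood above its 3 replicates. The LFC was 2.63 in IP (SE 0.21, adjusted p = 5.9e-08) and 1.84 in input (SE 0.21, adjusted p = 5.9e-06). Ckap5, a microtubule polymerase, was called in IP alone. It had 49.3, 61.9, 38.5 and 32.0 CPM in the control IP libraries, 75.4, 60.8, 63.5 and 59.0 CPM in DTR IP, 44.4, 45.4, 61.2 and 42.6 CPM in control input and 49.8, 44.8, 46.9 and 50.9 CPM in DTR input. The groups overlapped, the LFC was 0.51 in IP (adjusted p = 0.0249) and -0.01 in input, and edgeR did not call it in IP (adjusted p = 0.0667). The call was also lost without DTR IP replicate 1 (adjusted p = 0.0792), control IP replicate 3 (0.0834) or control IP replicate 4 (0.0825). Tubb4b, a beta tubulin that many cell types use (ENSMUSG00000036752, chromosome 2 of GRCm38 from 25222160 to 25224702), was the most abundant of the 51 genes. It had 279, 250.4, 250.04 and 405 CPM in the control IP libraries, 237, 206, 172 and 309.9 CPM in DTR IP, 292, 305, 367 and 356 CPM in control input and 221, 245, 279 and 294 CPM in DTR input. Replicate 4 was the highest IP library in both treatments, the groups overlapped, and the LFCs of -0.32 and -0.33 were not called (adjusted p = 0.255 and 0.285).

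**Figure D3:**
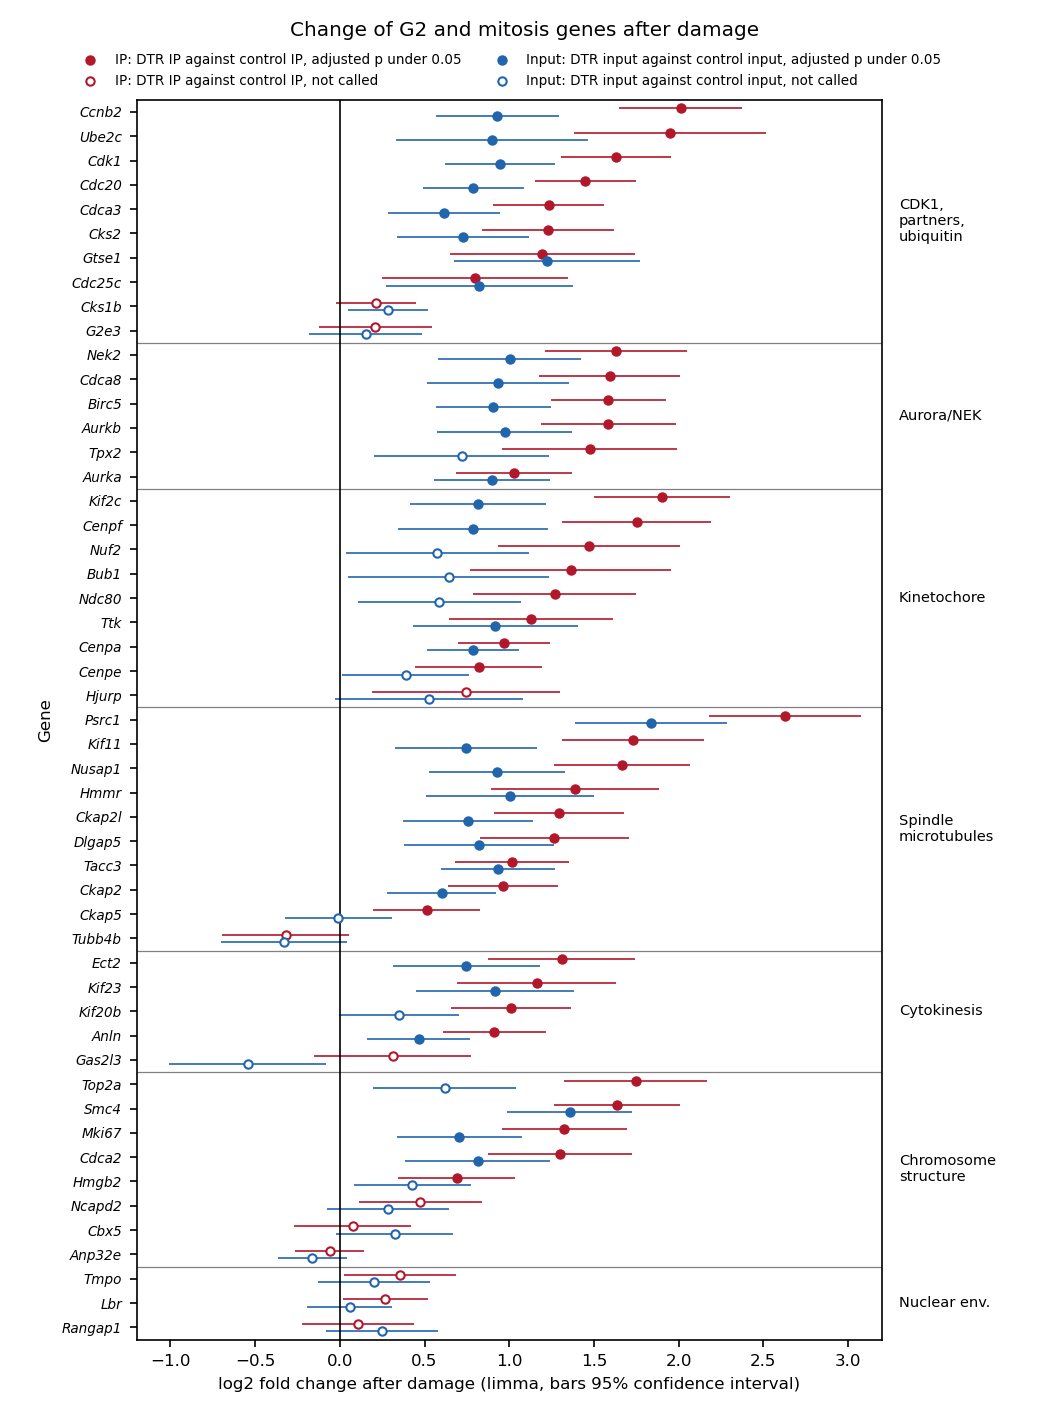
LFC after damage of each gene (rows, by role and then by size in IP) with 95% confidence intervals from limma, for DTR IP against control IP (red) and DTR input against control input (blue). Filled points were called at an adjusted p under 0.05, open points were not, and Psrc1 lies farthest right at 2.63 in IP and 1.84 in input.

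Of the 5 cytokinesis genes, 4 were called in DTR IP (median LFC 1.01) and 3 in DTR input (median 0.47). Ect2, the exchange factor that activates RhoA at the cleavage furrow, had 1.79, 1.72, 1.73 and 1.77 CPM in control IP compared with 5.75, 7.87, 4.54 and 4.93 CPM in DTR IP, and 10.6, 6.53, 6.14 and 9.60 CPM against 14.3, 11.6, 13.2 and 17.0 CPM in input. The 4 control IP values lay within 0.1 CPM of each other and below all others, and the LFC in IP was 1.31 (SE 0.21, adjusted p = 0.00018). In input it was 0.75 (adjusted p = 0.0216), a call lost without control input replicate 2 (0.0869) or 3 (0.0792) or DTR input replicate 4 (0.0671). Anln (anillin), a scaffold of the contractile ring, had 4.81, 5.01, 3.76 and 3.96 CPM in the control IP libraries, 11.3, 8.76, 9.97 and 8.02 CPM in DTR IP, 11.6, 9.80, 9.21 and 11.54 CPM in control input and 17.7, 14.2, 13.1 and 14.3 CPM in DTR input. Its groups did not overlap, with LFCs of 0.91 and 0.47 (adjusted p = 0.00018 and 0.0404). The call of Anln in input was lost without control IP replicate 1, control input replicate 2 or 3, or any 1 of the DTR input libraries (adjusted p from 0.0507 to 0.143). Gas2l3, which links actin to microtubules, had 32.1, 42.7, 30.8 and 18.4 CPM in control IP compared with 35.8, 44.3, 51.0 and 26.6 CPM in DTR IP, and 88.8, 106, 66.1 and 63.9 CPM against 41.9, 64.2, 51.7 and 61.8 CPM in input. It was the member of this role with the highest level and the signs of its changes differed, at 0.31 in IP (adjusted p = 0.387) and -0.54 in input (adjusted p = 0.13). With a replicate block, the lower level in DTR input was called (adjusted p = 0.0288).

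Chromosome structure was the most mixed role, with 5 of 8 genes called in DTR IP (median LFC 0.99) and 3 in DTR input (median 0.52). Top2a, the topoisomerase that untangles sister chromatids (ENSMUSG00000020914, chromosome 11 of GRCm38 from 98992943 to 99024189), had 10.7, 9.52, 6.23 and 3.498 CPM in control IP compared with 29.9, 28.4, 22.2 and 26.2 CPM in DTR IP. In input it had 28.6, 24.3, 23.7 and 18.4 CPM in control and 39.8, 33.6, 38.9 and 35.1 CPM in DTR libraries. Neither pair overlapped, but the LFC was 1.75 in IP (SE 0.20, adjusted p = 5.1e-06) and 0.62 in input, where it missed the threshold (SE 0.20, adjusted p = 0.0508, and 0.00987 with the block). Leaving out control input replicate 1 or control IP replicate 1, 2 or 4 gave a call in input (adjusted p from 0.0101 to 0.0498). The condensin subunit Smc4 met the study's criteria in both, with a range of 14.5 to 22.2 CPM in the control IP libraries, 44.8 to 79.4 CPM in DTR IP, 22.3 to 28.5 CPM in control input and 45.6 to 77.0 CPM in DTR input (LFC 1.64 and 1.36). Mir15b and Mir16-2 lie inside that gene on the same strand. Cbx5, the heterochromatin protein HP1 alpha, had 259.7, 261, 295 and 203 CPM in control IP compared with 235, 256, 357 and 219.7 CPM in DTR IP, and 126, 112, 98.3 and 77.3 CPM against 133, 101, 133 and 143 CPM in input. The treatments overlapped, with LFCs of 0.08 (adjusted p = 0.813) and 0.32 (adjusted p = 0.251), while every IP library was above every input library. Anp32e, a chaperone that removes the histone variant H2A.Z, had 104, 116, 116 and 89.2 CPM in the control IP libraries, 109, 113, 94.3 and 95.6 CPM in DTR IP, 199, 171, 153 and 162 CPM in control input and 149, 155, 158 and 141 CPM in DTR input. It and Tubb4b were the only members with a negative LFC in DTR IP, -0.06 for Anp32e (95% confidence interval -0.26 to 0.14, adjusted p = 0.741).

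None of the 3 nuclear envelope genes was called after damage by limma, in IP (median LFC 0.27) or in input (median 0.20). Tmpo, which encodes the lamina-associated LAP2 proteins, had 68.5, 65.6, 51.3 and 44.8 CPM in control IP compared with 94.0, 86.1, 63.6 and 58.5 CPM in DTR IP, and 143, 117, 96.6 and 109 CPM against 154, 148, 121 and 109 CPM in input. Within each replicate number DTR IP lay above control IP. Its LFC of 0.35 was not called (adjusted p = 0.146) and was called with the replicate block (adjusted p = 0.00537). Rangap1, the GTPase-activating protein of Ran, had 38.3, 30.0, 33.6 and 40.9 CPM in the control IP libraries, 46.6, 38.3, 29.0 and 44.3 CPM in DTR IP, 54.4, 41.6, 52.5 and 44.5 CPM in control input and 66.6, 53.9, 47.9 and 64.6 CPM in DTR input. The groups overlapped and the LFC in IP was 0.11 (95% confidence interval -0.22 to 0.44, adjusted p = 0.715). Lbr, the lamin B receptor, had LFCs of 0.27 and 0.06, not called (adjusted p = 0.146 and 0.838).

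The LFC was larger in IP than in input for 46 of the 51 genes, with a median difference of 0.50 between the LFCs, and such a sign was seen for 49.1% of all tested genes. The exceptions were Cbx5, Cdc25c, Cks1b, Gtse1 and Rangap1, with differences between -0.25 (Cbx5) and -0.03 (Cdc25c). No single difference was called (limma, adjusted p under 0.05, 0 of 51), against 0.0118% of all tested genes. At an unadjusted p under 0.05 the LFC was larger in IP for 23 of the genes, against 2.47% of all tested genes, and the smallest adjusted p was 0.216, for Ccnb2, with a difference of 1.08 (SE 0.24). Top2a had the largest difference, 1.13 (SE 0.28, adjusted p = 0.283), and Kif2c followed at 1.08 (adjusted p = 0.283). With a replicate block, which pairs each IP with the input of its homogenate, 2 genes were called, Ccnb2 and Top2a (adjusted p = 0.0268 for both). DESeq2 called 3, Ccnb2, Kif11 and Kif2c, and edgeR 0. The difference was also positive for 4 of 4 endothelium, 5 of 5 Schwann cell and 5 of 5 mesenchyme markers (medians 0.46, 0.40 and 0.36). It was positive for 5 of 6 hair cell and 3 of 4 neuron markers (medians 0.30 and 0.44). Medians were 0.10 for red cell, -0.01 for macrophage, -0.09 for GER and -0.15 for Lgr5 supporting cell markers. A larger LFC in IP was thus not particular to the 51 genes, and its cause was not tested.

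In control cochleae these transcripts were scarcer in IP than in the whole tissue. In control IP against control input, 31 of the 51 genes were called lower and 3 higher, with a median LFC of -0.70, against 20.7% and 19.3% of all tested genes. The lowest ratio was that of Kif11, the kinesin that pushes spindle poles apart, with 1.88, 1.78, 1.26 and 0.719 CPM in control IP compared with 13.1, 9.88, 7.91 and 8.95 CPM in control input. No library of one group reached the other, and the LFC was -2.38 (SE 0.20, adjusted p = 4.3e-08). Bub1 (-1.87) and Ect2 (-1.80) came next. The 3 genes higher in control IP were Cbx5 (LFC 1.35, adjusted p = 3.7e-06), the proliferation marker Mki67 (0.55, adjusted p = 0.0185) and Hmgb2, a chromatin protein (0.46, adjusted p = 0.0332). On CPM without quantile normalization Cbx5 alone of them was called.

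In DTR cochleae the median gap was smaller, as it also was for markers of several other cells. DTR IP against DTR input had 16 of the genes called lower and 6 higher, with a median LFC of -0.32, against 20.5% and 18.6% of all tested genes. Those 16 were all lower in control IP too, and the other 15 genes lower in control IP were not called in DTR. Of the 16, the calls of Cdc20, Cdk1, Ckap2l, Gtse1, Ncapd2, Nuf2 and Nusap1 in DTR were each lost without DTR IP replicate 3. With a replicate block, which pairs the IP and input of each homogenate, 34 genes were lower in control IP and 23 in DTR IP. Of the 15 genes, 7 were then called lower in DTR IP, namely Aurkb (adjusted p = 0.012), Ccnb2 (0.0482), Gas2l3 (0.00721), Kif23 (0.0137), Kif2c (0.0306), Top2a (0.00558) and Tpx2 (0.00928). In control IP the block added Hjurp (0.00467), Psrc1 (0.0148) and Smc4 (0.0237). Beside Cbx5, Hmgb2 and Mki67, the genes higher in DTR IP were Cenpf, a kinetochore protein, Hmmr, a spindle assembly factor, and Ckap5. The call of Ckap5 was lost without DTR IP replicate 1, 3 or 4 or any 1 of the 4 DTR input libraries (adjusted p from 0.0516 to 0.112), on CPM as deposited and with no filter on low values. Cenpf had 10.1, 8.90, 3.88 and 6.24 CPM in control IP compared with 6.96, 6.93, 8.20 and 7.01 CPM in control input, which overlapped, and 32.7, 33.3, 18.5 and 24.0 CPM in DTR IP against 12.6, 13.6, 12.5 and 13.3 CPM in DTR input, which did not (LFC 0.98, adjusted p = 0.00115). Mki67 had 37.7, 34.9, 27.1 and 28.9 CPM in DTR IP and 13.7, 14.2, 14.5 and 12.6 CPM in DTR input (LFC 1.17, adjusted p = 4.3e-05). For Schwann cell markers the median LFC of IP over input was -2.07 in control and -1.43 in DTR, and for endothelium markers -1.63 and -1.19. For hair cell, mesenchyme and neuron markers the control medians were -1.17, -0.64 and -1.58, and the DTR medians -0.89, -0.20 and -1.34. Macrophage markers went the other way, from -1.51 to -1.89, and red cell markers moved little, from -1.91 to -1.81. The plot of IP over input draws each gene as a line from its control to its DTR value. The ratio differed with gene length over all tested genes, and the median LFC of all tested genes in control IP against control input went from 0.05 in the fifth of genes with the shortest exons to -0.14 in the fifth with the longest, while the medians of the members, in order from the shortest to the longest exons, were -0.96 (4 genes), -0.70 (9 genes), -1.08 (10 genes), -0.60 (16 genes) and -0.37 (12 genes). With a correction for length 33 members were lower and 2 higher in control IP, and 17 and 6 in DTR IP. Shares over all tested genes with the replicate block or this correction are not given here.

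**Figure D4:**
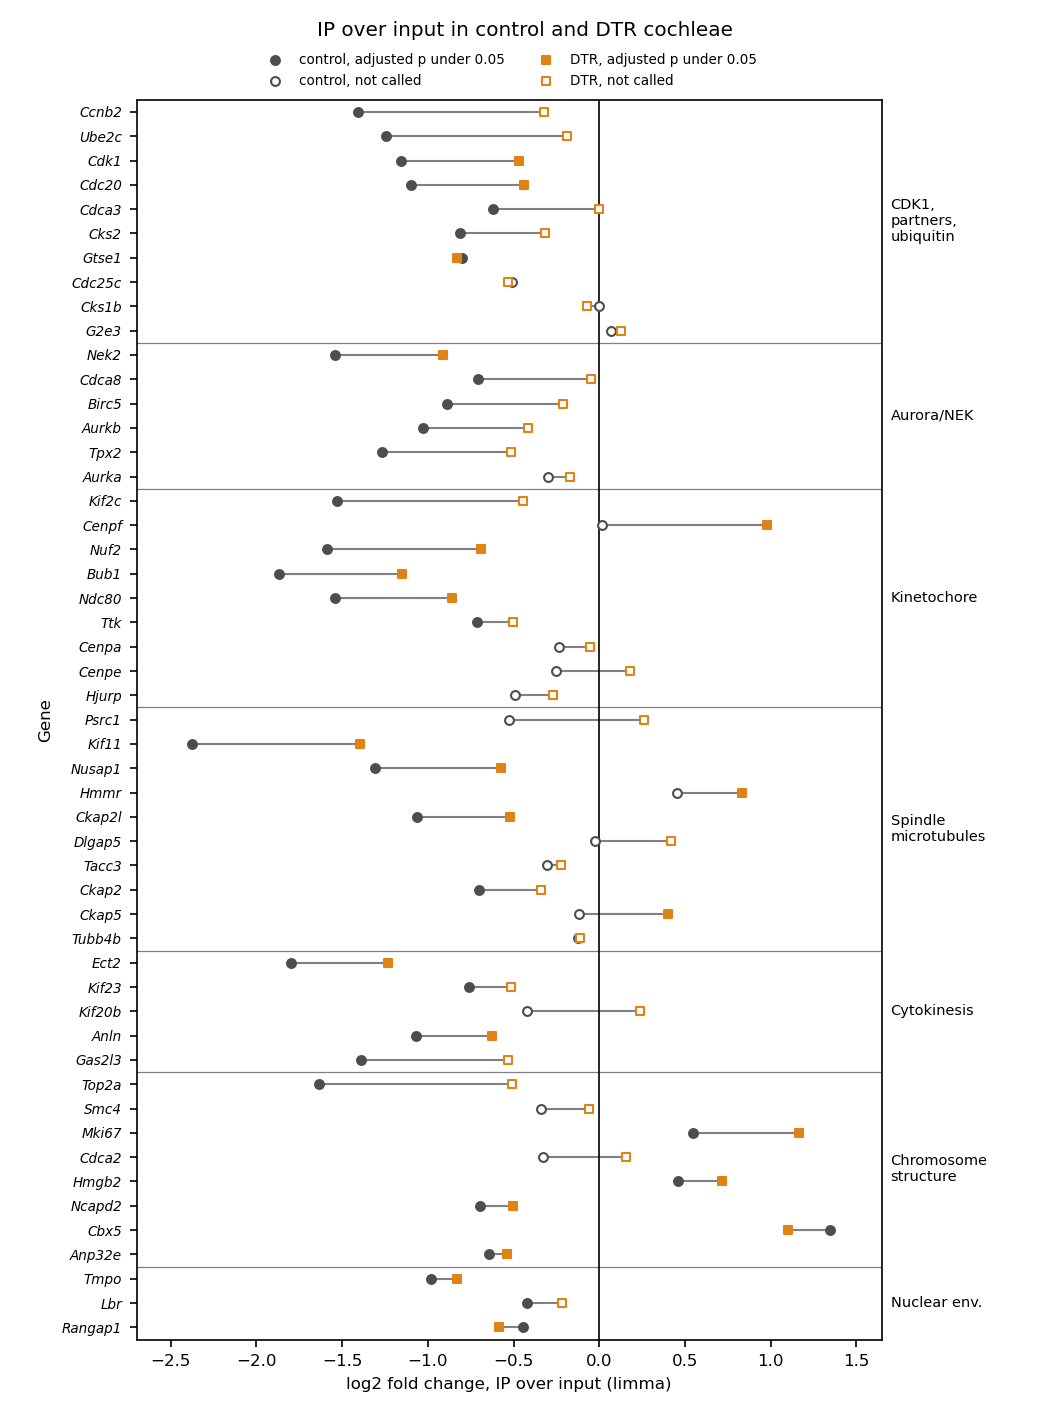
LFC of IP over input for each gene (rows, by role) in control (circles) and DTR cochleae (squares), joined by a line, filled where called at an adjusted p under 0.05. Most lines run from a lower control value to a DTR value nearer 0, such as Kif11 from -2.38 to -1.39, and Cbx5 stands highest in control at 1.35.

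The genes not called in DTR IP had higher levels in control cochleae than those that were called. Per kb of exon, the median level in control IP was 0.918 CPM over the 40 genes called in DTR IP, with a range from 0.168 (Ndc80) to 36.2 (Hmgb2), and 7.06 CPM over the 11 not called, from 1.88 (Hjurp) to 142 (Tubb4b). After damage the medians were 3.04 and 8.13 CPM per kb. To keep level and change in separate libraries, the LFC in IP was set against the log2 level per kb in control input, which gave Pearson's r = -0.55 and Spearman's rho = -0.37 over the 51 genes, and the LFC in input against the level in control IP gave -0.54 and -0.42. These coefficients describe genes measured in the same pools and carry no test. By level per kb in control input, Tubb4b, Anp32e, Cks1b, Cbx5, Gas2l3 and Tmpo were at the high end and were not called in IP. Hmgb2, Cdc20 and Cks2 stood at levels above that of Tmpo and were called higher in IP.

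**Figure D5:**
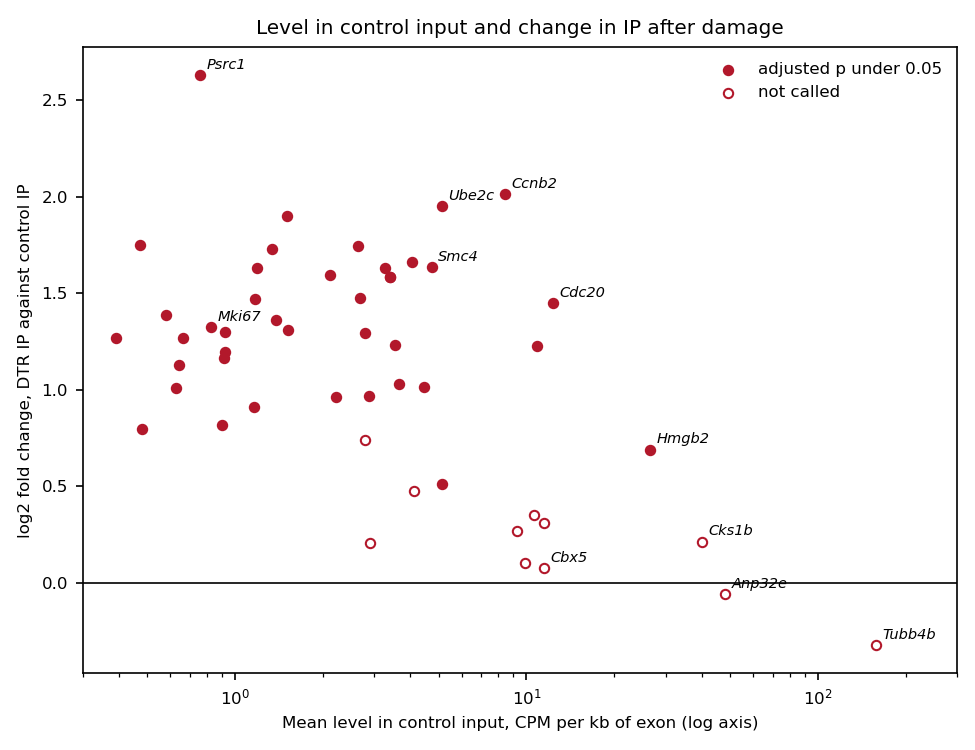
LFC of DTR IP against control IP (vertical axis) against the mean level in control input in CPM per kb of exon (horizontal, log axis) for the 51 genes, filled where called at an adjusted p under 0.05. Low and middling genes spread around 1 to 2, and the genes at the right end, Cks1b, Anp32e and Tubb4b, lie near or below 0.

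Other genes of the cell cycle gave a wider frame. Of 60 further G2 and mitosis genes, 58 were found and tested, of which 35 were called higher and 1 lower in DTR IP (median LFC 0.80), and 20 higher and 1 lower in DTR input (median 0.56). The largest rises in IP were those of Pbk, a mitotic kinase (LFC 2.07, SE 0.20, adjusted p = 7.8e-07), and Melk, a kinase of dividing progenitors (1.69, SE 0.26, adjusted p = 0.00012). The gene called lower was Sapcd2, which orients the spindle in polarized epithelia, at -2.10 in IP (SE 0.23, adjusted p = 2.5e-06) and -2.43 in input (adjusted p = 4.1e-07). The next lowest in IP was Zwint, a kinetochore gene, at -0.02 (adjusted p = 0.916). Of 44 S phase genes, which replicate DNA, 20 were called higher in DTR IP (median LFC 0.43) and 9 in DTR input (median 0.31), and 0 lower. All these shares lay above the 8.44% and 7.17% of all tested genes called higher, and whether the lists differ from each other was not tested.

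Part of the counts cannot be assigned with certainty. For 26 of the 51 genes another annotated gene overlaps (GENCODE M21), for 17 of them on the opposite strand, and the strand setting of the counting is not given in the sources used here.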

How the data were processed

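RNA was measured in 16 libraries (SMART-Seq v4), 4 in each of the groups input and IP of control and DTR cochleae. The authors deposited CPM per gene, from reads counted on genes with HTSeq after alignment to GRCm38. The paper's methods name HISAT2 as aligner and the submitters' processing notes name TopHat. The annotation release is not given in the sources used here. At a tolerance of 0.01 reads, at least 99.996% of values per library were whole multiples of 1 read, so counts were recovered for edgeR and DESeq2. Of 50316 listed genes 47729 had values, and 173 were unnamed.

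CPM were quantile normalized over all genes with values and put on a log2 scale after adding 0.5. The 16994 genes that reached 0.5 CPM in every replicate of any 1 group were tested with limma (version 3.58.1, R 4.3.3, mean-variance trend, 4 group means, two-sided, Benjamini-Hochberg adjustment). Separation raised values under 1.08 CPM, the 10th percentile, to that floor. This model was checked on simulated counts. Positions and exon lengths came from GENCODE M21 and promoter windows from RefSeq (GRCm38.p6), searched on 45 of 51 genes.

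The members and lists were chosen with earlier results of these data known. In each role the text names the 2 genes with the highest mean CPM and those with the largest and smallest change in IP, together with members of opposite sign and the Cks1b and Cks2 pair (23 genes), and other members were named after their values were seen. Alternatives were CPM as deposited or median centred, pseudocounts of 0.1 and 1, no filter or a minimum of 2 CPM, the compared groups alone, a replicate block, a gene length correction, edgeR (version 4.0.16, quasi-likelihood), DESeq2 (version 1.42.0) and each library left out.

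IP and input of a number come from the same homogenate, per the methods. Deviations from group means correlated across genes between same-numbered libraries, with a mean r of 0.373 in control and 0.407 in DTR between IP and input, and 0.388 (IP) and 0.357 (input) between treatments, each pair above 0.1, against -0.135 to -0.119 on average for different numbers. Deviations from a group mean cancel out for each gene, so the negative averages largely follow from the positive ones and are no separate evidence. Calls that the block adds are named in the text.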

Additional observations from a re-analysis of the deposited data

Results flagged for a closer look

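In each group of 4 libraries, the CPM of the 23 genes named by rule were checked for a library far from the rest (the gap to the nearest other library as a share of the range of the group, against Dixon's critical value for 4 samples). This held for 4 of 92 groups, and chance alone flags about 1 in 20 groups (5%).

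Psrc1 had 2.48 CPM in control IP replicate 4, against 1.22 to 1.23 CPM in the other 3 control IP libraries. Birc5 had 7.89 CPM in control IP replicate 1, against 4.68 to 5.14 CPM in the others. Both values lay below every DTR IP library of the same gene. Ckap5 had 61.2 CPM in control input replicate 3, against 42.6 to 45.4 CPM, and Cks1b had 46.4 CPM in DTR input replicate 4, against 57.7 to 59.6 CPM. Without that last library the LFC of Cks1b in input was 0.38 and was called.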

How the results depend on the processing

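The counts of genes called higher after damage ranged from 38 to 44 in IP and from 29 to 37 in input over the scalings, pseudocounts, filters, models and tools tried, and none of these alternatives turned the direction of a called gene or count. With each library left out in turn, they ranged from 38 to 41 in IP, where Cdc25c and Ckap5 were lost at least once, from 25 to 33 in input, from 31 to 37 for control IP against input and from 15 to 24 for DTR IP against input. The replicate block lost no call. It gave 43 calls in IP, 35 in input (34 higher and Gas2l3 lower), 37 for control IP against input and 29 for DTR IP against input. For the difference between IP and input the main model called 0 genes, the block 2, the block with a length correction (chosen after seeing the data) 2 and DESeq2 3, and leaving out a library gave 0 to 0. Members that met the study's criteria in input numbered 2, but 5 without the separation criterion, 4 on CPM as deposited, and 2 to 8 with a library left out (8 without control input replicate 1). These leave-one-out counts for the criteria were added after seeing the data. The cause of these shifts was not tested, and shares over all tested genes are not given for these alternatives. Every member had at least 19 reads in every library. The p-values of the main model measure the spread between libraries within groups, and that model treats the IP and input libraries of a pool as independent.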
